A study of Homo sapiens with 9 samples.

Results

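Caspases are proteases that cut other proteins at aspartate residues, and the inhibitor of apoptosis proteins hold them in check. This account covers 8 genes of that system among the 60880 gene IDs counted in each library, namely the caspases CASP2, CASP8, CASP9, CASP6 and CASP4 and the inhibitors XIAP, BIRC2 and BIRC3. They were chosen by name, each matched 1 Ensembl ID, and all 8 passed the filter on low counts in every comparison. SNU5, an established human gastric carcinoma line, was treated for 24 h with ramucirumab, a monoclonal antibody against VEGFR2. The antibody was bound to PEG-coated gold nanorods (AuNR-PEG-Ab, NR group), bound to PEG-coated gold nanospheres (AuSP-PEG-Ab, SP group) or given alone (Ab group), at 8 μg/mL of antibody in each group. All 3 groups therefore carried the antibody, and the Ab group was the control without gold or PEG. Untreated cells, gold without antibody and antibody with PEG alone are not among the libraries used here. Gold, PEG and their binding to the antibody therefore cannot be told apart in comparisons with Ab. Each group had 3 poly-A RNA libraries. Their totals were 19566064 to 26318227 counts in the Ab group, 20601906 to 22914759 counts in the SP group and 13863155 to 25735410 counts in the NR group. The study states that its cell experiments were repeated independently, but the labels do not tie the libraries to separate cultures, so the p-values may measure only the spread between these libraries.

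In the intrinsic pathway of apoptosis, cytochrome c released from mitochondria binds APAF1, and the complex activates caspase-9, an initiator that cuts other caspases. Caspase-8 is the initiator recruited by death receptors through FADD, caspase-6 is an executioner that cuts nuclear lamins, and caspase-4 is an inflammatory caspase that senses bacterial lipopolysaccharide in the cytosol and cuts gasdermin D. XIAP binds and blocks caspases directly, while the proteins of BIRC2 and BIRC3 (cIAP1 and cIAP2) are ubiquitin ligases that act mainly at TNF receptor complexes and hold down the non-canonical NF-kB pathway.

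The shared feature of the 5 caspases is the active-site cysteine, and the stretch around its codon is shown because it is the part that makes each of them a protease. Each line gives 33 coding bases of the spliced GENCODE transcript on GRCh37, 5′ to 3′, with the codon of the cysteine in capitals. The stretches of CASP2, CASP9, CASP6 and CASP4 span 2 exons.
CASP2: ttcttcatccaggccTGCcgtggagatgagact
CASP8: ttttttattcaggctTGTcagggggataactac
CASP9: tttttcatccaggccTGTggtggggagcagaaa
CASP6: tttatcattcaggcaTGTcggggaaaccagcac
CASP4: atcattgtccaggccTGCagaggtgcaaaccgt
The codon lies in exon 8 of 11 of CASP2 (chr7:142997378-142997380, plus strand), exon 8 of 9 of CASP8 (chr2:202149814-202149816, plus strand), exon 6 of 9 of CASP9 (chr1:15831113-15831115, minus strand), exon 6 of 7 of CASP6 (chr4:110612160-110612162, minus strand) and exon 5 of 9 of CASP4 (chr11:104820277-104820279, minus strand). It encodes residue 320 of CASP2, 360 of CASP8, 287 of CASP9, 163 of CASP6 and 258 of CASP4. The cysteine is written TGC in CASP2 and CASP4 and TGT in the other 3.

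The libraries were checked against markers of the labelled cell type and of others. Of 6 epithelial markers, 5 were above 3 counts in some library, with KRT8 the most abundant, but KRT19 had 0 or 1 count in every library and EPCAM only 29 to 141. Their summed level was 929 to 986 CPM (counts scaled to a common library total) in Ab, 2351 to 2454 in SP and 2299 to 2340 in NR. The 7 leukocyte markers summed to at most 1.33 CPM, with PTPRC at 0 or 1 count. Of 5 fibroblast markers, all were above 3 counts somewhere, led by COL1A1, and they summed to 68.6 to 80.5 CPM in NR and SP against 16.7 to 44.4 in Ab. In that list DCN had 9, 21 and 7 counts in Ab libraries 1 to 3 and 280 to 518 in the gold libraries, and PDGFRB had 8 to 11 and 150 to 320. By contrast, COL1A2 had 198, 278 and 33 counts in Ab, 49, 49 and 43 in SP and 37, 0 and 0 in NR. The 3 endothelial markers matched, led by CDH5, summed to 20.8 to 24.2 CPM in NR and SP against 3.53 to 5.04 in Ab, with VWF at 21 to 34 counts in gold libraries and 0 or 1 in Ab, and TEK at no more than 3. Ab library 1 differed more from Ab libraries 2 and 3 (chi-square per gene 7.43 and 6.95) than these did from each other (2.17). KDR, the gene of VEGFR2 and looked up after the values were seen, had 1 count in 1 NR library and 0 in the other 8, where 0 counts allow up to 0.114 to 0.216 CPM (3 counts, counting error only). The share of counts from mitochondrial genes was 4.36% to 4.66% in NR and SP and 3.41% to 3.71% in Ab. These shifts moved with the same split of groups as the results below, and their part in the results was not tested. Whether all libraries came from the same cell stock was not tested either.

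Against antibody alone, both gold groups had more CASP9 and CASP6 RNA and less CASP4, BIRC2, BIRC3 and, by a smaller margin, XIAP RNA, while CASP2 and CASP8 did not pass the test. CASP9 was 1.96-fold higher in NR and 1.72-fold higher in SP, and BIRC3 was 2.08-fold and 2.14-fold lower. Thus 6 of 8 genes passed an adjusted p of 0.05 in each comparison, 2 higher and 4 lower, tested by quasi-likelihood in edgeR and adjusted over all genes by Benjamini-Hochberg. The background was as high: 72.7% of 15009 genes tested passed in NR against Ab (36.4% higher and 36.4% lower), and 73.0% of 15068 in SP against Ab (36.4% higher and 36.6% lower). The median size of the log2 change was 0.76 over the 8 genes in both comparisons and 0.51 over all genes. With the study's minimum of 2-fold added, BIRC3 was called in NR (1 of 8, background 22.7%) and CASP4 and BIRC3 in SP (2 of 8, background 23.2%). The 2 comparisons share the Ab libraries and are given side by side. In bulk libraries, fewer cells with a transcript and less of it in each cell cannot be told apart.

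**Figure D1:**
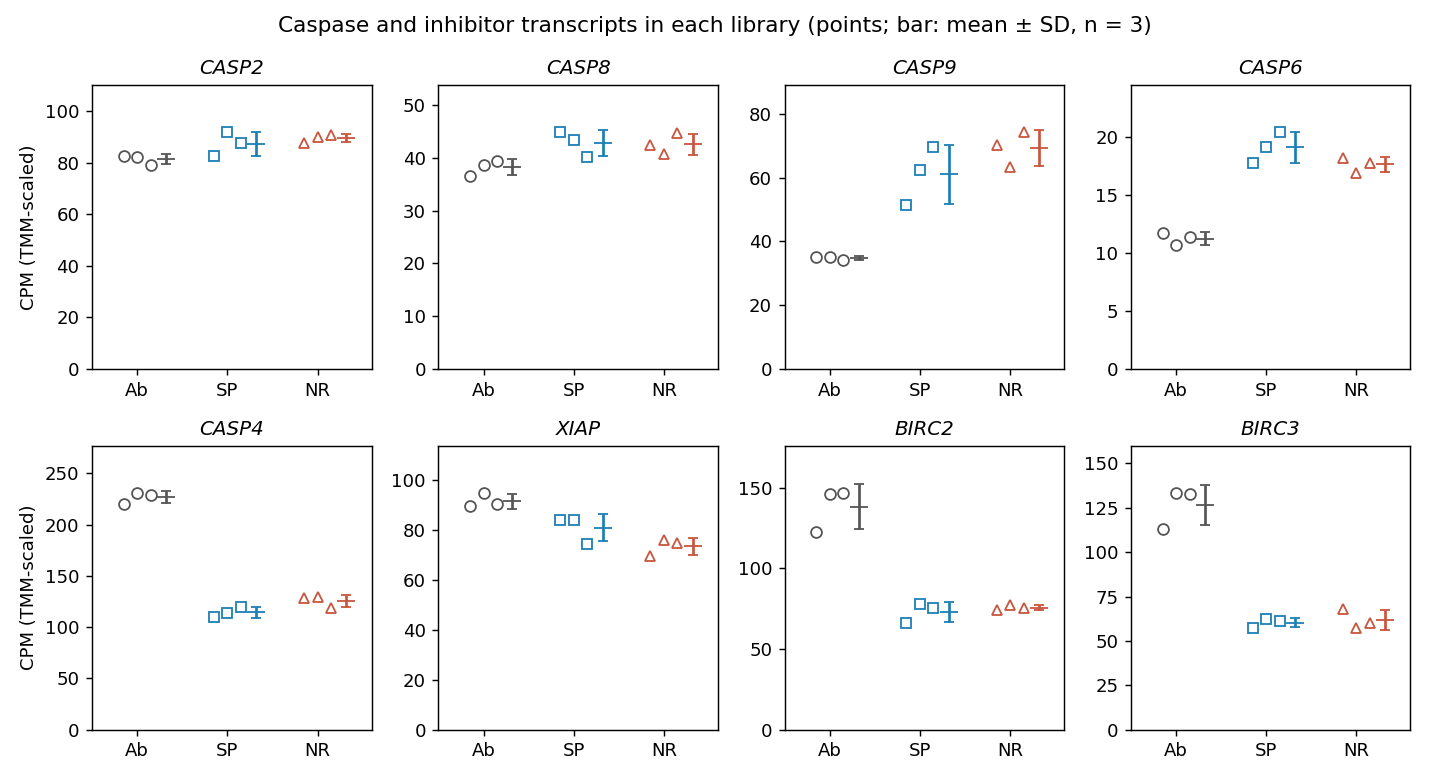
TMM-scaled CPM of the 8 genes in each library (points), grouped as Ab, SP and NR, with the mean ± SD of 3 libraries as a bar beside them; each vertical axis starts at 0. The Ab libraries lie below all gold libraries for CASP9 and CASP6 and above all of them for CASP4, XIAP, BIRC2 and BIRC3.

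Among the initiator caspases, CASP9 (ENSG00000132906, chr1:15817327-15853029 of GRCh37, minus strand) had 35.0, 35.1 and 34.1 CPM in Ab libraries 1 to 3, 51.3, 62.2 and 69.5 in SP and 70.2, 63.3 and 74.2 in NR. Every gold library was above every Ab library, and SP library 1 was the lowest of the 6. On the log2 scale it rose by 0.97 (SE 0.064, adjusted p = 9.02e-14 by edgeR) in NR and 0.78 (SE 0.086, adjusted p = 2.17e-07) in SP. The NR value stood just under the 2-fold minimum and became 1.02 without NR library 2, the lowest of that group. Of all genes tested, 24.0% changed by at least as much as CASP9 in NR and 32.6% in SP. Its exons share 1.92% of their length with CELA2B on the other strand.

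CASP2 and CASP8 were nearly level. CASP2 (ENSG00000106144, chr7:142985308-143004789, plus strand), the caspase activated by the PIDD1 platform, had 82.8, 82.1 and 79.2 CPM in Ab, 82.7, 91.9 and 87.6 in SP and 87.9, 90.0 and 91.0 in NR. Its NR libraries did not overlap the Ab libraries, whereas SP library 1 lay within their range. The log2 fold change was 0.11 (95% confidence interval 0.006 to 0.217, adjusted p = 0.0533 by edgeR) in NR and 0.08 (-0.040 to 0.192, adjusted p = 0.228) in SP, the latter 0.032 without SP library 2. The NR value passed without Ab library 1 (0.12, adjusted p = 0.0238 by edgeR). CASP8 (ENSG00000064012, chr2:202098166-202226559, plus strand) had 36.5, 38.7 and 39.5 CPM in Ab, 44.8, 43.3 and 40.1 in SP and 42.3, 40.6 and 44.6 in NR. All gold libraries were above the Ab libraries, SP library 3 by less than 1 CPM, and 4.74% of the exon length is shared with another annotated gene on the same strand (ENSG00000289698). The log2 fold change of CASP8 was 0.13 (-0.006 to 0.261, adjusted p = 0.0801 by edgeR) in NR and 0.14 (-0.001 to 0.272, adjusted p = 0.0687) in SP. The SP value passed without SP library 3 (0.19, adjusted p = 0.0283 by edgeR). Both intervals leave room for a rise of up to 1.21-fold in CASP8 and 1.16-fold in CASP2.

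The executioner CASP6 (ENSG00000138794, chr4:110609778-110624739, minus strand) was the least counted of the 8 genes, with 228 to 465 counts per library. It had 11.7, 10.6 and 11.3 CPM in Ab, 17.7, 19.1 and 20.4 in SP and 18.2, 16.9 and 17.7 in NR. The gold libraries lay above the Ab libraries with a wide gap, and their own ranges overlapped. The log2 fold change was 0.63 (SE 0.095, adjusted p = 1.02e-06 by edgeR) in NR and 0.74 (SE 0.094, adjusted p = 6.98e-08) in SP, which is 1.55-fold and 1.67-fold. Its exons share 5.04% of their length with MCUB on the other strand, and MCUB, a subunit of the mitochondrial calcium uniporter, rose by 1.04 on the log2 scale in each gold group. Whether the counting used strand is not given in the sources used here, so the part of MCUB reads in the CASP6 counts was not tested.

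The inflammatory CASP4 (ENSG00000196954, chr11:104813593-104840093, minus strand) was the most abundant of the 8 in counts, with 1804 to 6120 per library. It had 220, 231 and 229 CPM in Ab, 110, 114 and 120 in SP and 128, 130 and 118 in NR. No gold library reached the lowest Ab library. It fell by 0.88 on the log2 scale (SE 0.047, adjusted p = 9.01e-16 by edgeR) in NR and by 1.01 (SE 0.049, adjusted p = 1.26e-16) in SP. In SP it was 2.02-fold lower, just past the 2-fold minimum, and without SP library 1 its log2 change was -0.99.

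Of the 3 inhibitors, BIRC3 (ENSG00000023445, chr11:102188215-102210134, plus strand) had 113, 133 and 133 CPM in Ab, 57.5, 62.3 and 61.0 in SP and 67.7, 57.0 and 60.3 in NR. Its neighbour BIRC2 (ENSG00000110330, chr11:102217942-102249401, plus strand) had 122, 146 and 147 CPM in Ab, 66.2, 78.0 and 75.4 in SP and 74.1, 77.1 and 75.6 in NR. In both genes the gold libraries stood well below the Ab libraries, and Ab library 1 was the lowest of its group. BIRC3 fell by 1.06 on the log2 scale (SE 0.069, adjusted p = 1.10e-10 by edgeR) in NR and by 1.10 (SE 0.062, adjusted p = 5.48e-15) in SP. BIRC2 fell by 0.90 (SE 0.061, adjusted p = 3.83e-12 by edgeR) in NR and by 0.95 (SE 0.071, adjusted p = 9.20e-10) in SP. Without Ab library 1 the BIRC2 change in SP was -1.03, past the 2-fold minimum. The ratio of BIRC2 to BIRC3 counts was 1.09 ± 0.013 (SD, n = 3) in Ab, 1.23 ± 0.13 in NR and 1.21 ± 0.054 in SP.

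XIAP (ENSG00000101966, chrX:122993562-123047822, plus strand), the inhibitor with direct binding to caspases, moved least of the 6 genes that passed. It had 89.4, 94.7 and 90.2 CPM in Ab, 84.0, 83.8 and 74.5 in SP and 69.6, 75.9 and 74.9 in NR. The gold libraries were all below the Ab libraries, and SP library 3 lay within the NR range. It fell by 0.35 on the log2 scale (SE 0.055, adjusted p = 2.12e-06 by edgeR) in NR and by 0.21 (SE 0.059, adjusted p = 0.00277) in SP, which is 1.27-fold and 1.15-fold lower. Of all genes tested, 63.7% changed by at least as much as XIAP in NR and 77.9% in SP.

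Counted by libraries, the NR and Ab groups did not overlap in 8 of 8 genes (background 74.7%), and the SP and Ab groups in 7 of 8 (background 75.0%), CASP2 being the exception. Leaving out each library in turn gave NR changes of 0.91 to 1.02 for CASP9, 0.59 to 0.66 for CASP6, -0.91 to -0.85 for CASP4, -0.38 to -0.31 for XIAP, -0.99 to -0.86 for BIRC2 and -1.14 to -1.01 for BIRC3 on the log2 scale. The same SP changes were 0.69 to 0.88, 0.70 to 0.78, -1.04 to -0.99, -0.24 to -0.14, -1.03 to -0.89 and -1.17 to -1.06, and all 6 genes passed in every such fit. Fold changes also ran with gene length across the transcriptome: the mean exon length of the counted protein-coding reads was 7084 to 7186 bases in Ab, 6910 to 6966 in SP and 6788 to 6878 in NR. With the trend of fold change on exon length removed, a step added after the values were seen, the NR changes were 0.997 for CASP9, 0.579 for CASP6, -0.832 for CASP4, -0.315 for XIAP, -0.892 for BIRC2 and -1.003 for BIRC3. In SP they were 0.7998 for CASP9, 0.724 for CASP6, -0.986 for CASP4, -0.208 for XIAP, -0.937 for BIRC2 and -1.067 for BIRC3, so that CASP4 no longer reached 2-fold. CASP2 and CASP8 were at 0.162 and 0.181 in NR and 0.0993 and 0.166 in SP after this step, which gives no test.

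The NR and SP groups ask whether rods and spheres with the same antibody dose differ. None of the 8 genes passed the test (0 of 8, where 0.443% of 14903 genes tested passed), and in no gene were the libraries apart (background 17.9%). At an unadjusted p under 0.05 there were 2 of 8 (background 12.9%), and DESeq2 gave 0 of the 5 genes with an adjusted p, leaving CASP8, CASP6 and BIRC3 without one. The first was CASP4, higher in NR by 0.14 on the log2 scale (95% confidence interval 0.040 to 0.231, unadjusted p = 0.00722, adjusted p = 0.191 by edgeR). The other was XIAP, at -0.14 in NR (-0.254 to -0.025, unadjusted p = 0.0185, adjusted p = 0.268). CASP9 had the widest interval, at 0.19 (-0.065 to 0.442, adjusted p = 0.520), so that a level up to 1.36-fold higher with rods lies within it. For CASP6 the difference was -0.11 (-0.279 to 0.065) and for CASP2 0.04 (-0.064 to 0.139). For BIRC2 it was 0.05 (-0.068 to 0.161), for BIRC3 0.04 (-0.077 to 0.163) and for CASP8 -0.01 (-0.131 to 0.120), and these 3 changed sign when some single libraries were left out. The others kept their sign, but CASP9 ranged from 0.083 (without SP library 1) to 0.291 (without SP library 3), CASP6 from -0.152 (SP library 1) to -0.058 (SP library 3) and CASP2 from 0.0035 (SP library 1) to 0.074 (SP library 2).

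**Figure D2:**
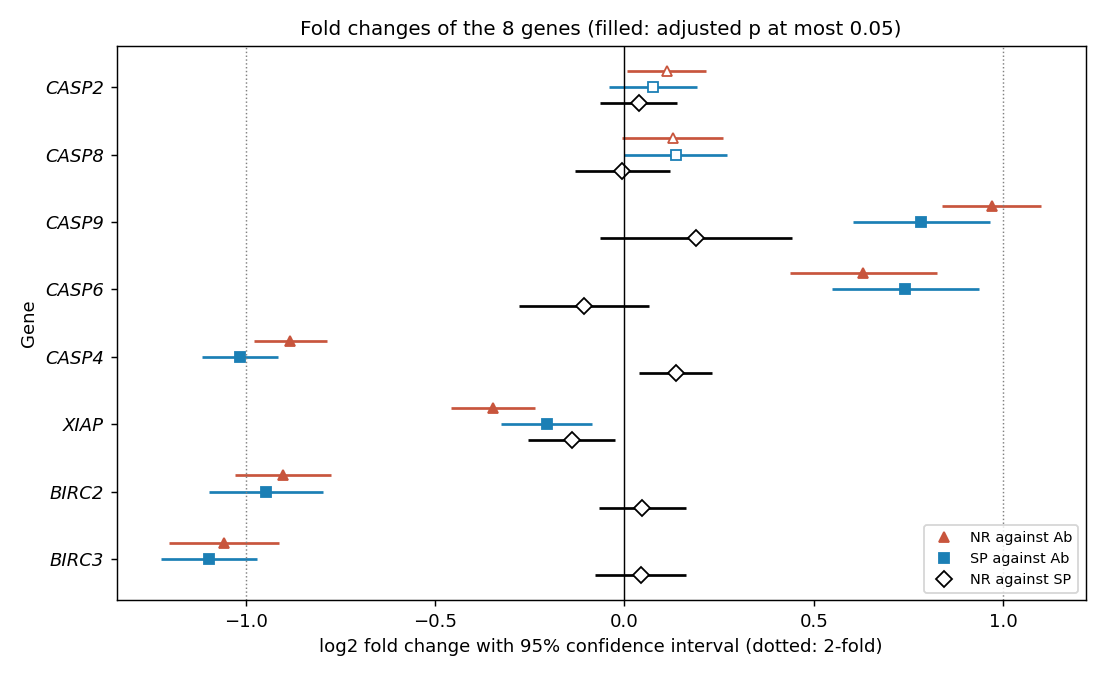
Log2 fold change (horizontal axis) of the 8 genes with 95% confidence intervals in NR against Ab, SP against Ab and NR against SP; filled markers passed an adjusted p of 0.05 and dotted lines mark 2-fold. The NR against SP values lie between -0.14 and 0.19 and are all open, whereas CASP9, CASP6, CASP4, XIAP, BIRC2 and BIRC3 are filled in both comparisons with Ab.

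Levels of different genes were set side by side as CPM per kilobase of annotated exon. In Ab the order was CASP4 (34.0 ± 0.85, SD, n = 3), BIRC2 (30.6 ± 3.1), BIRC3 (16.9 ± 1.5), CASP2 (10.1 ± 0.24), XIAP (9.60 ± 0.30), CASP9 (6.60 ± 0.10), CASP6 (5.77 ± 0.27) and CASP8 (5.28 ± 0.22). Only CASP2 and XIAP overlapped among neighbours in that order. In NR the order was CASP4 (18.8 ± 0.93), BIRC2 (16.7 ± 0.34), CASP9 (13.1 ± 1.1), CASP2 (11.2 ± 0.20), CASP6 (9.06 ± 0.34), BIRC3 (8.24 ± 0.73), XIAP (7.71 ± 0.36) and CASP8 (5.88 ± 0.28). There BIRC3 overlapped with both CASP6 and XIAP, and CASP9 was the third instead of the sixth. In SP CASP4 (17.2 ± 0.75) and BIRC2 (16.2 ± 1.4) overlapped at the top and CASP8 (5.91 ± 0.33) was again last. Between them, CASP9 (11.6 ± 1.7) overlapped with CASP2 (10.9 ± 0.57), CASP2 with CASP6 (9.81 ± 0.69), and XIAP (8.48 ± 0.57) with BIRC3 (8.05 ± 0.33).

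The 3 inhibitors summed to 57.1 ± 4.8 CPM per kilobase (SD, n = 3) in Ab, 32.7 ± 0.049 in NR and 32.7 ± 1.6 in SP. The 3 initiators CASP2, CASP8 and CASP9 summed to 22.0 ± 0.22, 30.2 ± 1.4 and 28.4 ± 1.9. The ratio of CASP9 to XIAP per kilobase was 0.687 ± 0.020 in Ab, 1.71 ± 0.17 in NR and 1.38 ± 0.29 in SP. Since CASP9 was higher and XIAP lower in every gold library than in every Ab library, this ratio had to be higher there too. Its separation is thus no further result. The lowest gold value was 1.10, in SP library 1. The size of this ratio depends on the exon lengths used as divisors. These are levels of RNA, and protein was not analysed here.

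**Figure D3:**
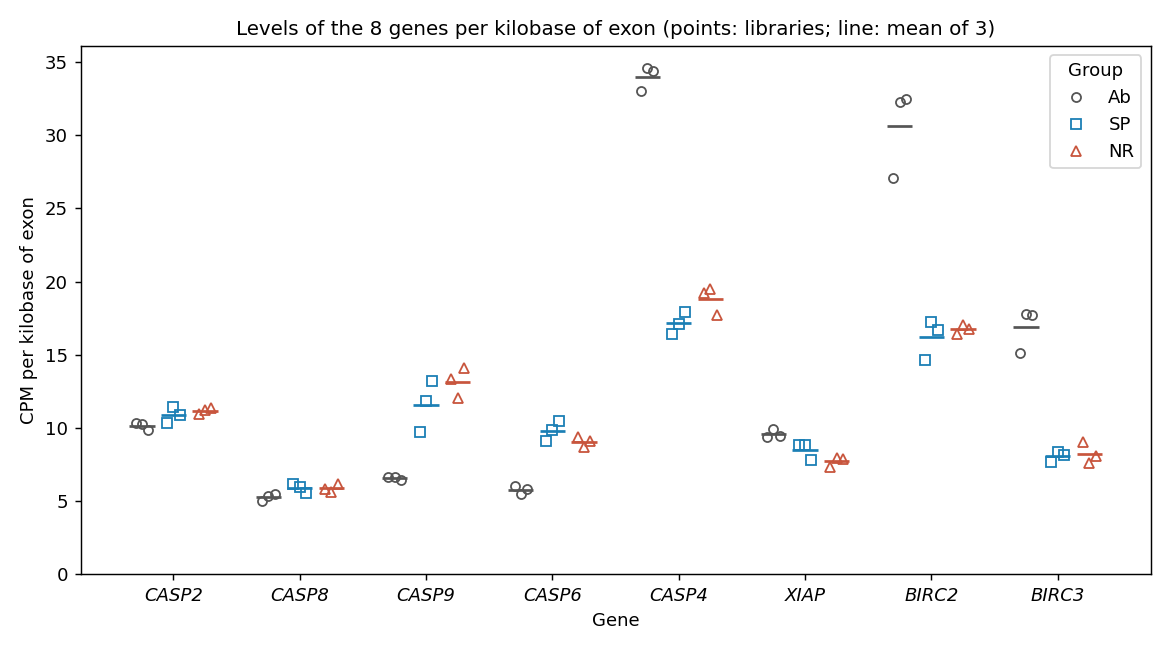
CPM per kilobase of annotated exon of the 8 genes in each of the 9 libraries (points; short line, mean of 3), for the Ab, SP and NR groups. BIRC2 and CASP4 are highest in every group, and BIRC3 goes from the third place in Ab to below CASP6 in NR and SP.

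The genes BIRC3 and BIRC2 lie in tandem on chromosome 11 with 7808 bases between them, and CASP4 lies 2.56 Mb further on. Both fell, and of the 4 other genes tested within 500 kb 0 fell. The background of genes that passed and were lower was 36.4% in NR and 36.6% in SP. Upstream of BIRC3, YAP1, a coactivator of the Hippo pathway, had log2 changes of 0.02 in NR and 0.06 in SP and did not pass. CEP126, a centrosomal gene, was at 0.28 (adjusted p = 0.101 by edgeR) in NR and rose by 0.83 in SP. Downstream of BIRC2, TMEM123 rose by 0.51 and 0.47, and MMP7, a matrix metalloproteinase, went from 4, 4 and 3 counts in Ab to 194 to 350 in the gold libraries. Next to CASP4, CASP1 rose by 0.22 and 0.27 and CARD16, which encodes a short relative of caspase-1, by 0.73 and 0.64. CASP5, the nearest relative of CASP4 there, had -0.39 and -0.42 on 16 to 40 counts and did not pass.

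CASP8 lies in another cluster, on chromosome 2, with a gap of 4.02 kb to CASP10 and a gap of 6.19 kb between CASP10 and CFLAR. CASP10, the other initiator that binds FADD, rose by 1.25 and 1.14 on the log2 scale (adjusted p = 4.19e-09 and 1.69e-08 by edgeR). CFLAR, whose protein c-FLIP is a catalytically inactive relative that blocks caspase-8, fell by 0.67 and 0.65 (adjusted p = 2.58e-10 and 4.71e-10). Thus 3 adjacent genes of the death receptor pathway took 3 courses, with CASP8 itself at 0.13 and 0.14. Within 500 kb of CASP8, 13 other genes were tested, of which 2 rose and 6 fell in each gold group (background 36.4% higher in both, and 36.4% lower in NR and 36.6% in SP).

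**Figure D4:**
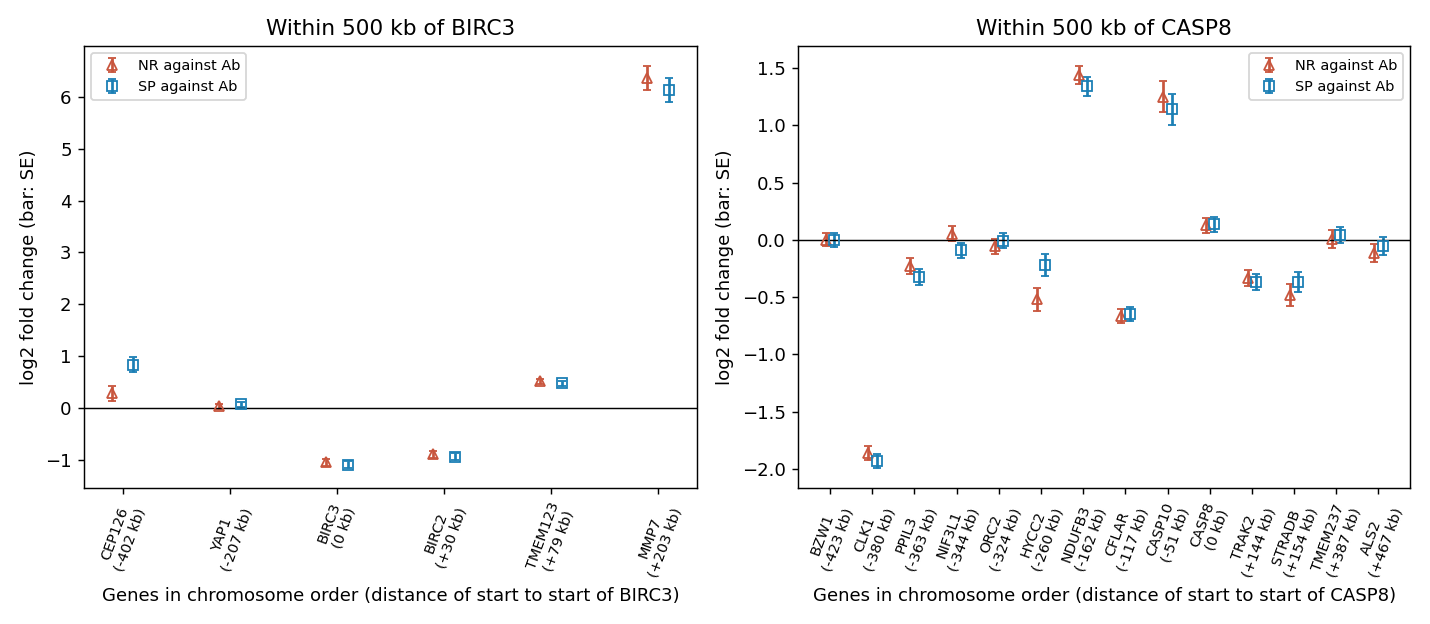
Log2 fold change (vertical axis; bar, SE) of the genes tested within 500 kb of BIRC3 (left) and of CASP8 (right) in NR and SP against Ab, in chromosome order, with the distance between start positions in kb under each name. BIRC3 and BIRC2 are the only genes below 0 on the left, and CFLAR, CASP10 and CASP8 are in 3 different places on the right.

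Since BIRC3 and BIRC2 moved together, the 250 bases before their RefSeq start sites (GRCh38.p14) are shown, with matches to the NF-kB consensus motif on either strand in capitals, BIRC3 being a known target of NF-kB. The first covers chr11:102317234-102317483 and the second chr11:102346964-102347213, both on the plus strand.
BIRC3: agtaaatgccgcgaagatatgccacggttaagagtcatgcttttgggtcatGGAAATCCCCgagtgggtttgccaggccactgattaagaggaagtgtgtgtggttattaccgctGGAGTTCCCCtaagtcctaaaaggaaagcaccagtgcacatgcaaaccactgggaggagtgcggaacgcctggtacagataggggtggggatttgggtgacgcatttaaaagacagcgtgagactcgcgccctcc
BIRC2: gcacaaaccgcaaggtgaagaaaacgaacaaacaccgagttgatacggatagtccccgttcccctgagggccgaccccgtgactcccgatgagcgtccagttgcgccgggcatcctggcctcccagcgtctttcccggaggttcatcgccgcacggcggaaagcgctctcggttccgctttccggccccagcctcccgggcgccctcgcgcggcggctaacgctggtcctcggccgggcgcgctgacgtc
The 2 BIRC3 matches begin 199 and 135 bases before the start site. At least 1 match to this motif is found in 9.57% of 27305 promoter windows of this length, and none is found in the windows of the other 7 genes. The GC box GGGCGG, in either direction, overlaps counted, is found 8 times before CASP9, 4 times before CASP2, 3 times before CASP6, once each before CASP8, CASP4 and XIAP, and not before BIRC2 or BIRC3. It is in 42.3% of all windows. These matches describe the letters and no binding was measured here.

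The profile over the 9 libraries most like that of each gene, by Euclidean distance of centred log2 CPM among 14435 genes, was that of DCK, a nucleoside kinase, for CASP9 (distance 0.207). For CASP6 it was PI4K2B (0.149), for CASP4 the autophagy receptor gene OPTN (0.103), for XIAP the lysosomal sulfatase gene IDS (0.129), for BIRC2 ARHGAP21 (0.114) and for BIRC3 RPGR (0.124). For the 2 genes that hardly moved it was UCK2 (CASP2, 0.0730) and STX18 (CASP8, 0.108).

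The remaining genes of the pathway were taken from 7 lists with 82 genes, of which 70 were tested. In NR 24 rose and 26 fell, 50 of 70 or 71.4%, and in SP 28 rose and 27 fell, 55 of 70 or 78.6%, against the backgrounds of 72.7% and 73.0%. Their median log2 change was -0.08 and -0.05. Between NR and SP 0 of 68 passed by edgeR, 17 had an unadjusted p under 0.05 (background 12.9%), and 1 passed by DESeq2 of the 22 to which it gave an adjusted p.

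Of the other caspases listed, 2 of 3 tested rose and 0 fell in each gold group (background 36.4% higher in both, and 36.4% lower in NR and 36.6% in SP). These were the initiator CASP10 and the inflammatory CASP1, and the third was CASP5, all given above. CASP12 and CASP14 had at most 2 counts in a library and were not tested.

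Of the other inhibitor of apoptosis genes, 2 of 4 tested rose in NR and 3 in SP, and 0 fell (background 36.4% higher in both, and 36.4% and 36.6% lower). BIRC5, which encodes the mitotic protein survivin, rose by 0.55 and 0.39, and BIRC7 (livin) by 0.68 and 0.88. BIRC6, a very large ubiquitin ligase, was at 0.12 in NR (adjusted p = 0.0534 by edgeR) and rose by 0.34 in SP.

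The list for caspase activation at mitochondria holds genes of the apoptosome, of factors released from mitochondria and of antagonists of the inhibitors. Of its 7 genes tested, 5 rose and 1 fell in each gold group (background 36.4% higher in both, and 36.4% lower in NR and 36.6% in SP). APAF1, the scaffold of the apoptosome, rose by 0.78 in NR and 0.87 in SP, with 441 to 628 counts in Ab and 610 to 1062 in the gold libraries. CYCS, cytochrome c, rose by 0.41 and 0.43, and AIFM1 by 0.70 and 0.72. The gene of the XIAP antagonist HTRA2 was at -0.16 (adjusted p = 0.0749 by edgeR) in NR and fell by 0.27 in SP, and DIABLO, another antagonist, fell by 0.83 in NR and was at -0.32 in SP (adjusted p = 0.193), on 18 to 63 counts per library. Of their exon length, 32.3% is shared with other genes in each case, and both values are uncertain. ENDOG rose by 1.04 and 0.61, with 40.1% of its exon length shared with antisense genes, and is uncertain too. SEPTIN4 had 1, 2 and 0 counts in Ab and 15 to 35 in the gold libraries. XAF1, an antagonist of XIAP, had 0 counts in all 9 libraries, with 38.3% of its exon length shared with an antisense gene, and is uncertain too.

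The list of death receptors and adaptors holds ligands, receptors and adaptors upstream of caspase-8, and also CRADD and PIDD1, adaptors of caspase-2. Of its 16 genes tested, 3 rose and 8 fell in NR, and 5 rose and 9 fell in SP (background 36.4% higher in both, and 36.4% and 36.6% lower). TNFRSF10B, a receptor for TRAIL, fell by 1.24 in NR and 1.31 in SP, from 285 ± 6.3 CPM (SD, n = 3) in Ab to 123 ± 6.7 and 117 ± 6.7. TNFRSF12A, the TWEAK receptor, fell by 1.78 and 1.74, and TNFRSF25 by 2.33 and 2.35 on 19 to 248 counts. TNFRSF10C, a decoy receptor for TRAIL, rose by 2.64 in NR and also rose in SP, but from 2 to 4 counts in Ab and with 33.0% of its exon length shared with other genes. FAS rose by 0.48 in NR and 0.38 in SP, with 25.7% of its exon length shared with antisense genes. The adaptor gene TRADD rose by 0.58 and 0.71. The ligand genes FASLG, TNF and TNFSF10 had at most 5 counts in a library.

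The list of partners of BIRC2 and BIRC3 holds TRAF adaptors, the kinase gene MAP3K14 and genes of the NF-kB pathway. Of its 20 genes, 13 fell and 2 rose in NR, and 14 fell and 2 rose in SP. The background of genes that passed and were lower was 36.4% in NR and 36.6% in SP. RBCK1, a subunit of the linear ubiquitin ligase, fell by 2.13 and 2.25 on the log2 scale, from 523 ± 29 CPM (SD, n = 3) in Ab to 121 ± 6.5 and 112 ± 2.3. RELB and NFKB2, which encode the subunits of the non-canonical NF-kB dimer, fell by 1.43 and 1.68 and fell by 0.892 in NR and 0.996 in SP. TRAF5, an adaptor of TNF receptors, fell by 0.97 in NR and was at -1.001 in SP, called at 2-fold only just past that minimum. REL rose by 0.75 and 1.11, with 33.3% of its exon length shared with another gene on its strand.

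Around CASP4, 4 of 7 pyroptosis genes tested rose in each gold group, and 2 fell in NR and 1 in SP (background 36.4% higher in both, and 36.4% and 36.6% lower). GSDMD, the substrate of caspase-4 that forms membrane pores, rose by 0.45 and 0.43, while CASP4 itself fell. GSDME, another gasdermin, rose by 1.01 and 1.10, IL18 by 0.90 and 0.87, and IL1B by 2.06 and 2.57 from 24 to 28 counts in Ab. GSDMB fell by 1.80 in NR and fell by 1.85 in SP on 2 to 29 counts. NLRP3 had 0 counts in all libraries, and PYCARD, the inflammasome adaptor, had 1 count in 1 Ab library. Other genes share 66.0% of the exon length of NLRP3, on the same strand, and 59.7% of that of PYCARD, antisense to it, so these counts are uncertain.

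Of 13 caspase substrate genes, 6 rose and 2 fell in NR, and 7 rose and 2 fell in SP (background 36.4% higher in both, and 36.4% and 36.6% lower). PARP1, a DNA repair enzyme, rose by 1.16 and 1.14, from 299 ± 10 CPM (SD, n = 3) in Ab to 684 ± 18 and 671 ± 19. LMNB1, a nuclear lamin, rose by 0.90 and 0.81, and GSN, the actin-severing gelsolin, by 2.70 and 2.84. DFFA, the inhibitor of the caspase-activated nuclease, fell by 0.40 and 0.38, and ACIN1, a nuclear substrate, by 0.33 in both.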

How the data were processed

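Poly-A RNA of SNU5 cells was sequenced in 9 libraries, 3 each of NR, SP and Ab. The deposited values are whole read counts per Ensembl gene ID, unscaled. The authors aligned reads with HISAT2 2.1.0 and used DESeq2 1.16.1; the paper names hg19, the submitters' notes mm9, and the IDs are human. The counter is named in 2 ways, and strand and annotation release are not given in the sources used here. Of 60880 IDs, 59858 were named by the GENCODE annotation of GRCh37, and 1022 others held at most 0.115% of counts.

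Pairs of groups were fitted separately, 6 libraries at a time (edgeR 4.0.16, R 4.3.3; TMM, filterByExpr with a minimum count of 10 and total of 15, robust quasi-likelihood), with Benjamini-Hochberg adjustment over all genes. A gene passed at an adjusted p of 0.05, and was called with 2-fold in addition. The steps were tested on simulated data with far fewer changed genes than passed here against Ab, so changes as widespread as these were not covered. CPM is TMM-scaled, except for cell type markers and limits at 0 counts, which use the library total, and kilobases are merged exons. Alternatives were DESeq2 1.42.0, RLE scaling, other filters and fold minimums, 1 fit of all 9 libraries, a replicate block and leaving out each library.

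The 8 genes and 7 lists (other caspases, other inhibitor of apoptosis proteins, caspase activation at mitochondria, death receptors and adaptors, partners of BIRC2 and BIRC3, pyroptosis, caspase substrates) were written by hand with earlier results of these data known, and some genes are not reported here. Named from each list are, among genes passing in NR or SP against Ab, the 3 with the smallest adjusted p in NR against Ab, those called at 2-fold, and CASP1, CASP10, CFLAR, BIRC5, DIABLO and GSDMD. KDR, HTRA2, FAS, TRADD, DFFA, ACIN1, CASP5, untested genes, chromosomal neighbours and motifs were picked with their values in view.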

Additional observations from a re-analysis of the deposited data

How the results depend on the processing

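The 6 genes that passed against Ab kept direction and side of the threshold in all alternatives run. With glmTreat against 2-fold, 0 of 8 genes were called in NR and 0 in SP, and with a 1.5-fold minimum 5 in each. CASP2 in NR passed with RLE scaling (0.116 on the log2 scale). With the length trend removed, added after seeing the data, CASP4 in NR was -0.832, and CASP8 between NR and SP 0.00979 in place of -0.00550. Leaving out single libraries gave 1 to 2 genes called at 2-fold in NR (2 without NR library 2) and 1 to 3 in SP (1 without SP library 1, 3 without Ab library 1). It gave 0.0872 to 0.123 for CASP2 in NR and 0.0898 to 0.189 for CASP8 in SP. Between NR and SP it gave -0.0482 to 0.0339 for CASP8, with the sign turned at 0.00339 (without NR library 1), 0.0205 (NR library 2), 0.0339 (SP library 1) and 0.00282 (SP library 2). The range was -0.0163 to 0.0938 for BIRC2, turned without SP library 1, and -0.0309 to 0.0918 for BIRC3, turned without NR library 1. The cause was not tested.

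Over all genes, the number that passed between NR and SP moved from 66 to 143 with DESeq2 and 328 with a filter of 1 count. Leaving out single libraries gave 10 (without NR library 2) to 188 (without SP library 3). Calls at 2-fold against Ab moved from 3409 in NR and 3502 in SP to 2061 and 2131 with glmTreat and 6348 and 6385 at 1.5-fold. Among the 82 list genes, 0 passed between NR and SP, 6 with a filter of 1 count, 4 without SP library 3, and 1 each with a replicate block, 1 fit of all 9 libraries, and without NR library 1 or SP library 2.

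Same-numbered libraries did not deviate together (r of -0.032 to 0.028 over 15471 genes), so the numbers are names. With a replicate block, 6 of 8 genes passed in NR and 6 in SP against Ab, and 0 between NR and SP; CASP9 was 0.965 and 0.778.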
